A study of Homo sapiens with 6 samples.

Results

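The genes described here encode ribosome biogenesis factors and nucleolar proteins. They were chosen by name and not by a rule on their values, but earlier results of these data were already known. They are the rows of the read count table whose Ensembl identifiers map to a given list of 40 symbols. These are 40 of the 61661 identifiers in the table. Each symbol matched 1 identifier, and all 40 genes passed the filter on low counts that left 17686 genes for testing. The table holds RNA-seq reads per gene for 6 libraries of K562 cells, an established line derived from the pleural effusion of a patient with chronic myeloid leukemia (CML) in blast crisis. The shMETTL3 group (METTL3 knockdown, 2 libraries) and the shMETTL14 group (METTL14 knockdown, 2 libraries) each carried a short hairpin RNA against a subunit of the m6A writer complex, and the shCTR group (labelled WT, 2 libraries) served as control. Per the study's methods, the METTL3 and control hairpins came in pLent-U6-GFP-puro lentivirus, in which the U6 promoter drives the hairpin, and infected cells were selected with puromycin. The shCTR cells thus also carried the vector, with a nonsense insert, GFP and puromycin resistance. The construct used against METTL14 is not given in the sources used here, and per the labels all cells were collected in logarithmic growth. Nothing states that the 2 libraries of a group came from separate cultures, so the p-values below measure the spread between these libraries, which may be technical.

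Ribosomes are built in the nucleolus. RNA polymerase I transcribes the ribosomal DNA into a long precursor, which small nucleolar ribonucleoproteins (snoRNPs) modify at chosen bases: box C/D snoRNPs add methyl groups to the ribose, and box H/ACA snoRNPs turn uridine into pseudouridine. Assembly factors then cut and fold the precursor with ribosomal proteins into a small and a large subunit, and both leave for the cytoplasm. Fast-growing leukemic cells depend on this pathway and much of it is switched on by the transcription factor MYC. METTL3 and METTL14 form the enzyme that places N6-methyladenosine (m6A) on messenger RNA, and the transcripts counted here are messengers, not ribosomal RNA, since mRNA was enriched on oligo(dT) beads.

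The libraries held between 19292574 and 20115304 counted reads. The targets fell in the libraries named after them: METTL3 went from 1788 and 1728 reads under shCTR to 1031 and 938 under shMETTL3 (log2 fold change -0.87), and METTL14 from 656 and 655 reads to 375 and 404 under shMETTL14 (-0.76). Of the erythroid genes typical of K562 cells, GATA1, TAL1, KLF1, HBE1 and TFRC had at least 2414 reads in every library, whereas HBG1 had only 10 to 22, and HBG2 and HBZ had 103 to 258. HBE1, embryonic globin, was higher in both knockdowns (log2 fold changes 0.96 and 0.41), as was KLF1 (0.36 and 0.27), and HBZ was higher in shMETTL3 (1.02). Of the lymphoid markers, CD3E, MS4A1 and CD79A had at most 4 reads in any library and CD3D had 62 to 118. Of the epithelial and stromal markers, COL3A1 and PECAM1 had at most 8 reads and COL1A1 had 42 to 112, but EPCAM had 728 to 1083 and KRT19 had 1237 to 1956. EPCAM was lower in both knockdowns (log2 fold changes -0.57 and -0.40), KRT19 was higher in shMETTL14 (0.47), and COL1A1 (1.11) and CD3D (0.66) were higher in shMETTL3. Some erythroid, lymphoid and epithelial or stromal markers thus moved with the groups. GATA1, TAL1, TFRC, HBG1 and HBG2 did not pass an adjusted p of 0.05 in either knockdown by edgeR's quasi-likelihood test. Log2 fold changes in shMETTL3 and shMETTL14 were 0.09 and -0.10 (GATA1), -0.07 and 0.06 (TAL1), and -0.12 and -0.17 (TFRC). Those of HBG1 were 0.19 and -0.44, and those of HBG2 were -0.00 and 0.04. The part of the markers in the results below was not tested.

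The 40 genes took between 0.623% and 0.685% of the reads of a library. Per kilobase of transcript in shCTR, NPM1 stood first at 1005 CPM per kb (read counts scaled to a common library total with TMM factors, divided by the length of the longest coding transcript in kilobases). FBL followed at 319 CPM per kb, NCL at 175, NOP10 at 139, DDX21 at 114 and DKC1 at 102. At the low end were UTP20 at 3.71 CPM per kb, RRP9 at 2.30 and RRP12 at 0.909. NPM1 alone held 22.4% to 25.6% of the reads of the 40 genes. RRP9 (52 to 85 reads a library) and RRP12 (69 to 104) were so thinly covered that the standard errors of their log2 fold changes reached 0.256, against a median of 0.0678 over the 40 genes in shMETTL3.

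Promoter sequences were matched for 34 of the 40 genes, taken from RefSeq on GRCh38.p14 as the 250 bases before to 50 bases after the annotated start. The E-box CACGTG, the palindrome recognised by MYC with its partner MAX, was present in 12 of these 34 promoters (35.3%), against 7.43% of all 27305 promoters in the same table and 10.0% of the 11076 promoters of genes tested. Of the 12, 4 are shown because their genes had different values: FBL and NOP2 fell in shMETTL3, PES1 did not pass the test, and NOP10, the only one with 2 E-boxes, had a positive fold change. Capitals mark the E-boxes, and each sequence runs 5′ to 3′ on the strand of its gene.
PES1, chr22:30591861-30592160, minus strand: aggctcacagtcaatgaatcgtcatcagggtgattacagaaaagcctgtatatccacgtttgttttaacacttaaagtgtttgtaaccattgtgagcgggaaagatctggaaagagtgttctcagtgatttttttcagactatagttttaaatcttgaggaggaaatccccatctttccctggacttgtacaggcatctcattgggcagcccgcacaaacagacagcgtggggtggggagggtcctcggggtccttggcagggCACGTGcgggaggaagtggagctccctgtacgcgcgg
FBL, chr19:39846330-39846629, minus strand: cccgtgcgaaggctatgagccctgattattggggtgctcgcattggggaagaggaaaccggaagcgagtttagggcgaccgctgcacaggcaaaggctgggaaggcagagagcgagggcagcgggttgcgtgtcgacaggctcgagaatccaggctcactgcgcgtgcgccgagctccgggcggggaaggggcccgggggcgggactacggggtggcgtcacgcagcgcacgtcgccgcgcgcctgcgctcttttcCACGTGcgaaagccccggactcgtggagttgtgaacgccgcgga
NOP10, chr15:34343087-34343386, minus strand: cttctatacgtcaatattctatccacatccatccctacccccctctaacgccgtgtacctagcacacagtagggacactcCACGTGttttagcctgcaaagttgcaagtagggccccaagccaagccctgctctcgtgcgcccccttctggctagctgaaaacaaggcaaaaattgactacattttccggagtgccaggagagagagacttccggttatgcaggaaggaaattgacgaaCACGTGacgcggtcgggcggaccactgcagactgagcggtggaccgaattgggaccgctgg
NOP2, chr12:6568242-6568541, minus strand: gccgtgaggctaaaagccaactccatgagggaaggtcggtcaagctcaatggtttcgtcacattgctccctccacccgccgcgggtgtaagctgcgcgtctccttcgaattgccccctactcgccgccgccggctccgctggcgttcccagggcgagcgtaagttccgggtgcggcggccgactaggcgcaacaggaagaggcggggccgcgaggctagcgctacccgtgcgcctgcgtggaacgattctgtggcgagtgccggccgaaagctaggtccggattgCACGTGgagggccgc
Counted from the start base as 0, the E-box begins at 13 in PES1, at 6 in FBL and at 35 in NOP2, and at -170 and -11 in NOP10. The other genes with the motif are NOP14, BYSL, RRP9, UTP4, UTP20, WDR43, EBNA1BP2 and MRTO4. In 10 of the 12 genes an E-box begins between -16 and 28; the exceptions are NOP2 (35) and EBNA1BP2 (-237). The RefSeq starts of PES1, FBL, NOP10 and NOP2 all lie inside the spans that GENCODE 29 gives these genes. Starts of single transcripts were not compared. The ETS core CCGGAAG, searched on both strands, was present in 14 of the 34 promoters (41.2%, against 10.7% of all promoters and 19.1% of those of genes tested), and the YY1 motif AAGATGGC in 2 (5.88%, against 3.03% and 5.29%). These last motifs can share the letters AAG, and a match counted for both. A match describes the letters only.

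In K562 cells with METTL3 knockdown, 6 of the 40 genes fell and none rose. NPM1, an abundant nucleolar histone and ribosomal protein chaperone, fell most, to 0.806 of its shCTR level. It was followed by NOP2 (0.835), WDR12 (0.856), FBL (0.859), NOP58 (0.859) and DKC1 (0.870). With METTL14 knockdown, 5 genes fell and none rose: TSR1 (0.839 of the shCTR level), WDR12 (0.851), DKC1 (0.855), DDX21 (0.865) and NPM1 (0.868). NPM1, WDR12 and DKC1 passed the threshold in both comparisons, which share the shCTR libraries. In bulk libraries, fewer cells holding a transcript and less of it per cell cannot be told apart, and CPM values do not show a change of all transcripts together.

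These counts come from edgeR's quasi-likelihood test, 1 fit over the 6 libraries with Benjamini-Hochberg adjustment over the 17686 genes and a threshold of 0.05. For shMETTL3, 6 of 40 genes called (15.0%) stand beside 16.5% of all genes tested, with 7.73% lower and 8.73% higher. For shMETTL14, 5 of 40 (12.5%) stand beside 6.69%, with 3.26% lower and 3.43% higher. At an unadjusted p under 0.05, 11 of the 40 genes differed in shMETTL3, of which only NOP10 was higher, and 15 in shMETTL14, of which only UTP3 was higher. These are 27.5% and 37.5% of the 40 genes, beside 29.9% and 20.7% of all genes tested. DESeq2 likewise called none of the 40 genes higher in either comparison, and 6 and 4 lower.

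Most of the 40 genes leaned downwards by a small amount. The median log2 fold change was -0.09 in shMETTL3 and -0.06 in shMETTL14, while that of all genes tested was 0.00 in shMETTL3 and -0.00 in shMETTL14. Log2 fold changes were below 0 for 29 of the 40 genes in shMETTL3 and for 30 in shMETTL14. They spanned -0.31 to 0.27 in shMETTL3 and -0.25 to 0.17 in shMETTL14. Both shMETTL3 libraries lay below both shCTR libraries for 19 genes and above both for 5 (27.3% and 28.7% of all genes tested, 56.0% in either direction). For shMETTL14 the groups did not overlap for 17 genes on the lower side and 4 on the higher side (23.9% and 25.0% of all genes tested, 48.9% in either direction). Summed over the 40 genes, the level was 6974 and 6888 CPM in shCTR, 6335 and 6275 in shMETTL3, and 6438 and 6247 in shMETTL14. Without NPM1 the sums were 5188 and 5139 CPM, 4917 and 4844, and 4924 and 4695, so the knockdown libraries lay below the shCTR libraries on both counts.

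By role, the medians in shMETTL3 ran from -0.22 for the box C/D core to -0.01 for the large subunit factors, and those in shMETTL14 from -0.18 for the multifunctional nucleolar proteins to 0.03 for RNA polymerase I transcription. The lean of the 40 genes depended on single libraries. Without shMETTL3 replicate 2 their median in shMETTL3 was -0.05. Without shMETTL14 replicate 2, the median in shMETTL14 log2 fold change was 0.00 with 20 of 40 genes below 0, and without replicate 1 it was -0.12. Scaled by library size alone, the median of all genes moved to 0.06 in shMETTL3 and 0.03 in shMETTL14, and that of the 40 genes was -0.03 in both; the distance from all genes stayed at -0.09 and -0.06.

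**Figure D1:**
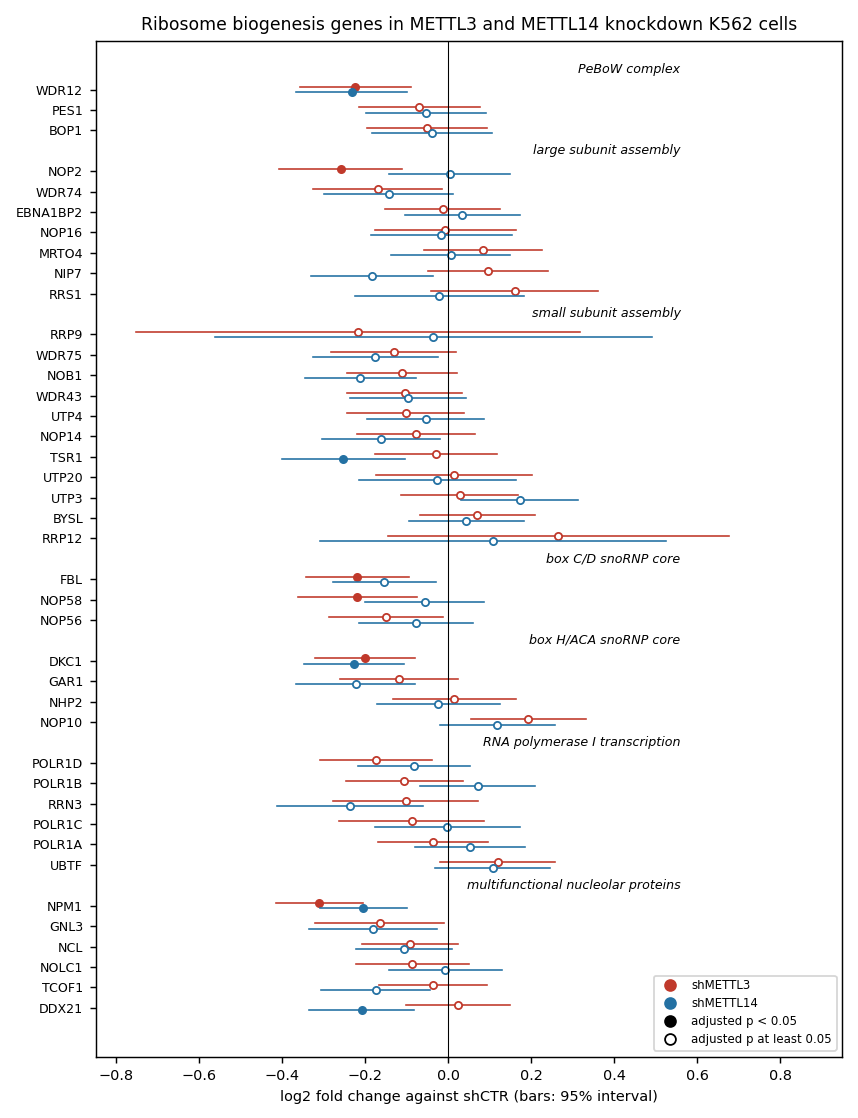
Log2 fold change of each of the 40 genes against shCTR (horizontal axis), grouped by role, for shMETTL3 (red) and shMETTL14 (blue); points are estimates from edgeR, bars are 95% intervals, and filled points have an adjusted p under 0.05. All 11 filled points lie left of 0, between -0.31 and -0.20, and the 2 thinly covered genes RRP9 and RRP12 have the widest bars.

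**Figure D2:**
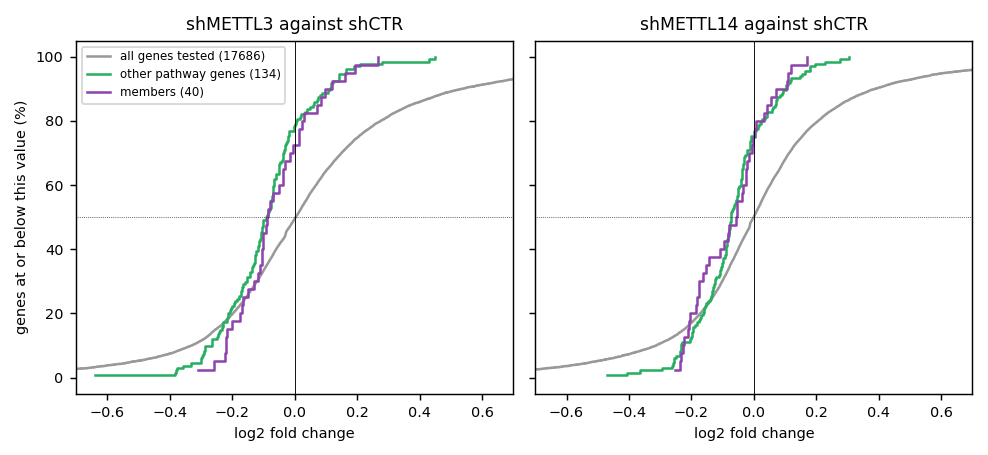
Share of genes (vertical axis, percent) at or below each log2 fold change (horizontal axis) for the 40 genes, 134 other ribosome biogenesis genes and all 17686 genes tested, in shMETTL3 (left) and shMETTL14 (right); the axis leaves out the outer tails of all genes. Both gene lists cross 50% left of 0, at -0.09 and -0.09 in shMETTL3 and at -0.06 and -0.07 in shMETTL14, whereas all genes cross it at 0.00 and -0.00.

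PES1, BOP1 and WDR12 form the PeBoW complex, which the large subunit needs for processing of its precursor RNA. PES1 (ENSG00000100029) is a subunit of the complex, with 17 exons at chr22:30576625-30607083, minus strand, in GENCODE 29 on GRCh38. It had 109 and 122 CPM in shCTR, 112 and 107 in shMETTL3, and 115 and 107 in shMETTL14. Its groups overlapped in every comparison. The log2 fold change was -0.07 in shMETTL3 (95% interval -0.22 to 0.08, adjusted p = 0.543) and -0.05 in shMETTL14 (-0.20 to 0.09, adjusted p = 0.721). BOP1 (ENSG00000261236), its WD-repeat partner, had 149 and 170 CPM in shCTR, 155 and 153 in shMETTL3, and 161 and 149 in shMETTL14. Its log2 fold changes were -0.05 (-0.20 to 0.09, adjusted p = 0.671) and -0.04 (-0.18 to 0.11, adjusted p = 0.804), again with overlapping groups. Both genes passed the threshold in shMETTL3 under 1 of 13 alternatives, the removal of a trend with GC content and gene length (-0.16, adjusted p = 0.0402, and -0.21, adjusted p = 0.00438). Both had a positive sign without shCTR replicate 2 (0.01 and 0.05 in shMETTL3). The pseudogene PES1P1 held 256 to 348 reads beside the 2099 to 2331 of PES1, so a part of the PES1 reads could have been counted there.

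WDR12 (ENSG00000138442; chr2:202874782-203014798, minus strand, 13 exons), the third PeBoW subunit, was the one that fell. It had 115 and 110 CPM in shCTR, 95.4 and 97.7 in shMETTL3, and 98.2 and 93.8 in shMETTL14. All 4 knockdown libraries lay below both shCTR libraries. The log2 fold change was -0.22 in shMETTL3 (standard error 0.0639, adjusted p = 0.0204) and -0.23 in shMETTL14 (standard error 0.0640, adjusted p = 0.0326). The call in shMETTL3 was lost with scaling by library size alone (log2 fold change -0.17, adjusted p = 0.0771). It was also lost without shCTR replicate 1 (-0.20), without shMETTL3 replicate 1 (-0.21) and without shMETTL3 replicate 2 (-0.24). Among the 6 fits that left out a library, the call in shMETTL14 held only without shCTR replicate 2 (-0.26). In the others the log2 fold change lay between -0.27 and -0.20. The shMETTL14 call was also lost with library size alone (adjusted p = 0.0598), without the filter (0.0612) and with the compared groups alone (0.0587). Whether WDR12 changed differently from PES1 and BOP1 was not tested.

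The box C/D snoRNP core is made of FBL, NOP56 and NOP58. FBL, the methyltransferase itself, had 355 and 385 CPM in shCTR, 316 and 320 in shMETTL3, and 340 and 325 in shMETTL14. Both knockdowns lay below the shCTR libraries, and the fall passed the test in shMETTL3 (log2 fold change -0.22, standard error 0.0594, adjusted p = 0.0153). In shMETTL14 the value was -0.15 (adjusted p = 0.137), which passed without shCTR replicate 1 (0.0367). NOP58, a scaffold protein of the particle, had 147 and 134 CPM in shCTR, 125 and 117 in shMETTL3, and 141 and 129 in shMETTL14. It fell in shMETTL3 (-0.22, standard error 0.0689, adjusted p = 0.0341), while the shMETTL14 libraries overlapped with shCTR (-0.06, adjusted p = 0.70). NOP56, the paired scaffold, had log2 fold changes of -0.15 (adjusted p = 0.128) and -0.08 (adjusted p = 0.547). The call for FBL was lost with scaling by library size alone (log2 fold change -0.16, adjusted p = 0.0643). It was also lost without shCTR replicate 2 (-0.16), shMETTL3 replicate 1 (-0.21) and shMETTL3 replicate 2 (-0.23). The call for NOP58 held in 4 of 13 alternatives. Among the fits that left out a library, it held only without shCTR replicate 2 (-0.28). In the others the value ran from -0.27 without shMETTL3 replicate 1 to -0.16 without shCTR replicate 1. With the GC and length trend removed, the value for NOP58 in shMETTL3 was -0.11 (adjusted p = 0.177). Under the same removal NOP56 passed in shMETTL3 (-0.21, adjusted p = 0.00909). FBL then passed in shMETTL3 (-0.25, adjusted p = 0.000337) and in shMETTL14 (-0.18, adjusted p = 0.0105).

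The box H/ACA core holds DKC1, NHP2, NOP10 and GAR1 and also serves telomerase. DKC1 (dyskerin), the pseudouridine synthase, had 319 and 307 CPM in shCTR, 275 and 270 in shMETTL3, and 272 and 263 in shMETTL14. All 4 knockdown libraries were below both controls, with log2 fold changes of -0.20 (standard error 0.0576, adjusted p = 0.0213) in shMETTL3 and -0.23 (standard error 0.0576, adjusted p = 0.0213) in shMETTL14. The shMETTL3 call was lost with scaling by library size alone (log2 fold change -0.14, adjusted p = 0.0914). It was also lost without shCTR replicate 1 (-0.17), shMETTL3 replicate 1 (-0.21) and shMETTL3 replicate 2 (-0.18). The shMETTL14 call was lost without shCTR replicate 1 (-0.20), shMETTL14 replicate 1 (-0.25), shMETTL14 replicate 2 (-0.20) and shMETTL3 replicate 1 (-0.23). NOP10, the smallest of the 4 transcripts, went the other way: 75.1 and 78.8 CPM in shCTR, 86.8 and 89.1 in shMETTL3, and 81.2 and 85.8 in shMETTL14. Its knockdown libraries lay above the controls, but neither comparison passed the threshold (0.19, adjusted p = 0.0519, and 0.12, adjusted p = 0.328). NOP10 was called higher in shMETTL3 under 4 of 13 alternatives, among them the fit without shCTR replicate 2 (0.22, adjusted p = 0.0286), scaling by library size alone (0.25, adjusted p = 0.0138) and the removal of the GC and length trend (0.30, adjusted p = 0.000606). GAR1 had -0.12 (adjusted p = 0.257) and -0.22 (adjusted p = 0.0560, and 0.0155 without shCTR replicate 1), and NHP2 had 0.01 and -0.02 with overlapping groups.

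**Figure D3:**
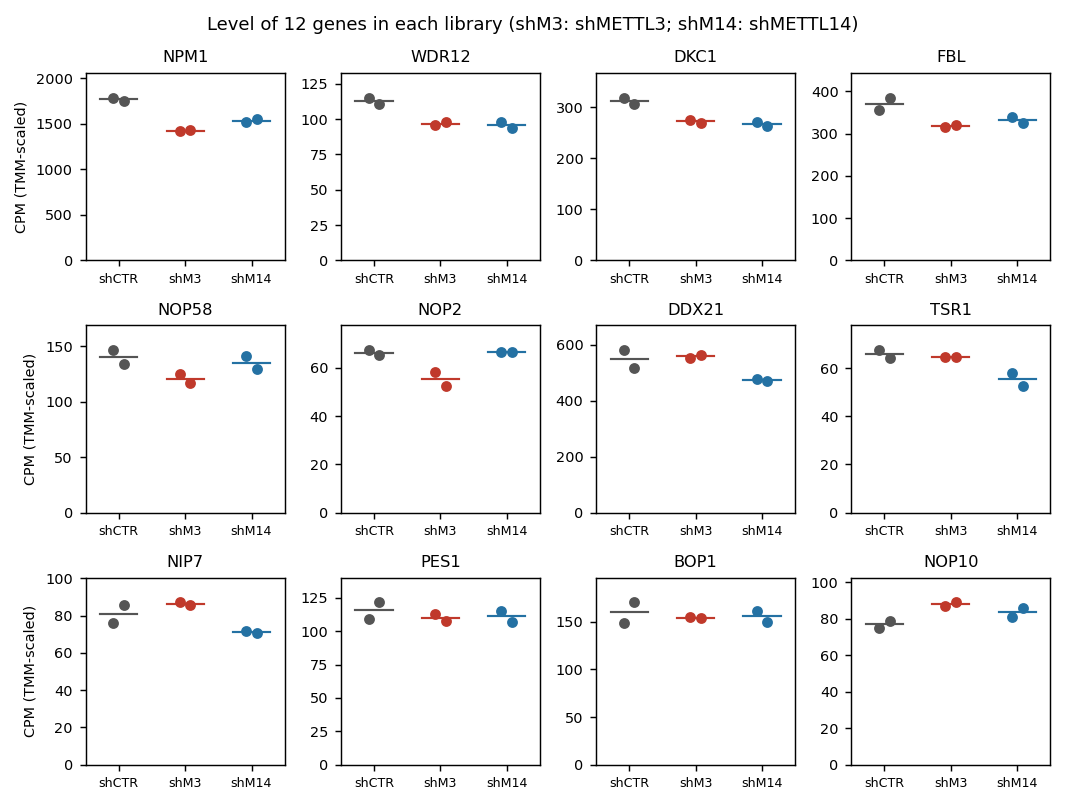
Level of 12 genes in each of the 6 libraries (vertical axes from 0, CPM scaled by TMM factors; shM3 is shMETTL3, shM14 is shMETTL14); points are libraries and lines are group means. NPM1, WDR12 and DKC1 were lower in all 4 knockdown libraries, NOP2 was lower in shMETTL3 alone among the groups shown, DDX21 and TSR1 were low in shMETTL14, and PES1 and BOP1 overlapped between all groups.

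Of the 6 genes of RNA polymerase I transcription, none passed in either knockdown in the reported edgeR fit or by DESeq2. In each knockdown 1 had an unadjusted p under 0.05. With the GC and length trend removed, POLR1D (-0.19, adjusted p = 0.0165) and POLR1A (-0.15, adjusted p = 0.0483) passed in shMETTL3. POLR1D, a subunit shared with RNA polymerase III, had 140 and 145 CPM in shCTR and 121 and 131 in shMETTL3 (-0.17, adjusted p = 0.0720). RRN3, which brings the polymerase to the promoter, had 37.5 and 37.3 CPM in shCTR and 32.8 and 30.6 in shMETTL14 (-0.24, adjusted p = 0.103). Its pseudogene RRN3P3 held 103 to 164 reads, so RRN3 is uncertain. UBTF, the factor that bends the ribosomal promoter, lay above the controls in both knockdowns (0.12 and 0.11, adjusted p = 0.238 and 0.388). The catalytic subunits POLR1A and POLR1B had -0.04 and -0.11 in shMETTL3 and 0.05 and 0.07 in shMETTL14, and POLR1C had -0.09 and -0.00.

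The most abundant nucleolar proteins held the largest fall. NPM1 (ENSG00000181163; chr5:171387116-171411137, plus strand, 11 exons), a shuttling chaperone often mutated in acute myeloid leukemia, had 1786 and 1749 CPM in shCTR, 1418 and 1431 in shMETTL3, and 1514 and 1552 in shMETTL14. The 3 groups did not overlap, and the order was shCTR, shMETTL14, shMETTL3. The log2 fold change was -0.31 in shMETTL3 (standard error 0.0502, adjusted p = 0.000284) and -0.20 in shMETTL14 (standard error 0.0502, adjusted p = 0.0168); the knockdowns themselves differed by -0.11 (adjusted p = 0.194), which did not pass. The shMETTL3 call held in all 13 alternatives, with log2 fold changes from -0.33 to -0.21. The shMETTL14 call was lost without shMETTL14 replicate 1 (0.149), shMETTL14 replicate 2 (0.0597), shMETTL3 replicate 1 (0.0535) and shMETTL3 replicate 2 (0.0509), and in a fit on the compared groups alone (0.0545). NPM1 has 49 named pseudogenes, of which NPM1P27 alone held 615 to 731 reads, so its count depends on how reads were shared among copies.

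DDX21, an RNA helicase that couples RNA polymerase I and II with rRNA processing, was counted 11504 and 9900 times with shCTR, 10896 and 11284 times with shMETTL3, and 9420 and 9253 times with shMETTL14. Only the shMETTL14 libraries were low: the log2 fold change was -0.21 there (standard error 0.0604, adjusted p = 0.0429) and 0.02 in shMETTL3 (adjusted p = 0.840). The shMETTL14 call held without shCTR replicate 2 (log2 fold change -0.29) and was lost without each of the other 5 libraries (-0.22 to -0.12). It was also lost with library size alone (adjusted p = 0.0777), without the filter (0.0613) and with the compared groups alone (0.0828). The remaining genes of the group did not pass in either knockdown. Nucleolin (NCL) had -0.09 and -0.11, GNL3 (nucleostemin) -0.17 and -0.18, TCOF1 (treacle) -0.04 and -0.17, and NOLC1, a chaperone of snoRNPs, -0.09 and -0.01. The NCL and GNL3 libraries lay below both controls in both knockdowns, and those of TCOF1 in shMETTL14. Among all genes tested, 27.3% lay lower in this way in shMETTL3 and 23.9% in shMETTL14. With the GC and length trend removed, TCOF1 passed in shMETTL3 (-0.19, adjusted p = 0.0176) and in shMETTL14 (-0.23, adjusted p = 0.00833). Without shCTR replicate 2, GNL3 passed in both knockdowns (adjusted p = 0.0373 and 0.0444) and TCOF1 in shMETTL14 (0.0474).

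Among the 11 small subunit factors, only TSR1 in shMETTL14 passed the test. TSR1, which rides on late precursors of the small subunit, had 67.6 and 64.3 CPM in shCTR, 64.7 and 64.5 in shMETTL3, and 58.1 and 52.6 in shMETTL14. The shMETTL14 libraries were low and apart from the other 4 (-0.25, standard error 0.0710, adjusted p = 0.0359), and the shMETTL3 value was -0.03 (adjusted p = 0.818). This call held in 4 of 13 alternatives and, with a library left out, only without shCTR replicate 2 (0.0175); the others lay between 0.0681 and 0.368. TSR1 shares 20.8% of its exon bases with SGSM2 and SRR on the opposite strand, and the strand setting of the counting is not given in the sources used here. NOB1, the nuclease that makes the last cut of the small subunit RNA, had 138 and 147 CPM in shCTR and 120 and 125 in shMETTL14 (-0.21, adjusted p = 0.0515, and 0.0214 without shCTR replicate 1), and -0.11 in shMETTL3 (adjusted p = 0.251).

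The processome proteins NOP14, WDR75, WDR43 and UTP4 had log2 fold changes from -0.13 to -0.08 in shMETTL3 and from -0.18 to -0.05 in shMETTL14, none past the threshold, although WDR75 passed in shMETTL14 without shCTR replicate 2 (adjusted p = 0.0379). UTP3 had 0.03 in shMETTL3 and 0.17 in shMETTL14 (adjusted p = 0.142), BYSL had 0.07 and 0.04, and UTP20 had 0.01 and -0.03. With the GC and length trend removed, UTP3 was called higher in shMETTL14 (0.20, adjusted p = 0.0291). For RRP9, a protein of the U3 snoRNP, the 95% interval in shMETTL3 ran from -0.75 to 0.32, and for the export factor RRP12 from -0.15 to 0.68. A change of the size seen in the other genes was not detectable in those 2 at this depth.

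Of the 7 large subunit factors, NOP2 fell in shMETTL3. NOP2, an rRNA methyltransferase and proliferation marker, had 67.5 and 65.1 CPM in shCTR, 58.3 and 52.4 in shMETTL3, and 66.5 and 66.4 in shMETTL14. The shMETTL3 libraries stood below the other 4, at -0.26 on the log2 scale (standard error 0.0710, adjusted p = 0.0161), and shMETTL14 was at 0.00 (adjusted p = 0.990). The call was lost with scaling by library size alone (log2 fold change -0.20, adjusted p = 0.0538). It was also lost without shMETTL3 replicate 2 (-0.18) and shCTR replicate 1 (-0.24). In GENCODE 29, 54.4% of its exon bases also belong to AC006064.6 on the same strand. That gene is not among the counted identifiers, and how far it bears on the NOP2 count was not tested. WDR74 had -0.17 and -0.14 (adjusted p = 0.127 and 0.285), and RRS1, a factor of the 5S particle, had 0.16 and -0.02 (adjusted p = 0.279 and 0.930). NOP16, EBNA1BP2 and MRTO4, which occupies the place of a ribosomal stalk protein during assembly, had values between -0.02 and 0.08 in both knockdowns. NIP7 had 0.10 in shMETTL3 (adjusted p = 0.379) and -0.18 in shMETTL14 (adjusted p = 0.133, and 0.0238 without shCTR replicate 1).

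Tested directly against each other, the knockdowns differed in 4 of the 40 genes (10.0%), beside 12.1% of all genes tested (6.65% higher and 5.49% lower in shMETTL3). NIP7, DDX21 and TSR1 were higher in shMETTL3 than in shMETTL14 and NOP2 was lower. NIP7, a partner of late large subunit precursors, had 87.2 and 85.6 CPM in shMETTL3 and 71.7 and 70.6 in shMETTL14, while the shCTR libraries had 76.0 and 85.7 (0.28, standard error 0.0700, adjusted p = 0.0108). The differences were 0.23 for DDX21 (standard error 0.0604, adjusted p = 0.0145), 0.22 for TSR1 (standard error 0.0710, adjusted p = 0.0453) and -0.26 for NOP2 (standard error 0.0710, adjusted p = 0.0182). Over the 40 genes the median difference was 0.01, and 9 genes did not overlap on each side (28.4% higher and 28.3% lower among all genes tested, 56.7% in either direction). The 4 calls were lost without any 1 of the 4 knockdown libraries, except for NOP2 without shMETTL3 replicate 1. The log2 differences kept their sign in these fits, which leave 1 library in a group. They ran from 0.27 to 0.30 for NIP7 and from 0.22 to 0.24 for DDX21. For TSR1 they ran from 0.15 to 0.29 and for NOP2 from -0.34 to -0.18. NIP7 shares 20.2% of its exon bases with COG8 on the opposite strand, which held 524 to 682 reads.

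The other genes of the pathway, 134 factors listed from general knowledge, also had medians below 0. In shMETTL3, 20 fell (14.9%) and none rose, beside 16.5% of all genes tested called in either direction and 7.73% called lower. The median log2 fold change was -0.09 and 105 were below 0. In shMETTL14, 8 fell (5.97%) and none rose, beside 6.69% called in either direction and 3.26% called lower. The median was -0.07 and 101 were below 0. At an unadjusted p under 0.05 they numbered 39 (29.1%) and 31 (23.1%), beside 29.9% and 20.7% of all genes tested, and DESeq2 called 16 and 5, all lower. By role, the falls in shMETTL3 were 10 of 48 small subunit factors, 8 of 57 large subunit factors, 1 of 9 RNA polymerase I factors, and 1 of 20 snoRNP assembly factors and nucleases.

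TAF1D, a subunit of the selectivity factor that loads RNA polymerase I and also a snoRNA host gene, had the largest falls of these 134 genes. Its shCTR libraries held 4756 and 4049 reads, against 3117 and 2639 for shMETTL3 and 3173 and 3240 for shMETTL14. Its level was 0.642 of shCTR in shMETTL3 (-0.64, adjusted p = 1.57e-05) and 0.723 in shMETTL14 (-0.47, adjusted p = 0.000773), and all 4 knockdown libraries were lower. RBM28, a large subunit factor, had 2839 and 2609 reads in shCTR and 2086 to 2193 in the knockdowns (-0.38, adjusted p = 0.000475, and -0.36, adjusted p = 0.00128). RCL1, of the small subunit processome, fell in shMETTL3 (-0.38, adjusted p = 0.000799) and shMETTL14 (-0.25, adjusted p = 0.0314). NMD3, the export adaptor of the large subunit, fell in shMETTL3 (-0.36, adjusted p = 0.00124), with -0.20 in shMETTL14 (adjusted p = 0.0926). UTP11 fell in shMETTL14 (-0.29, adjusted p = 0.00665) and in shMETTL3 (-0.22, adjusted p = 0.0220). The calls for TAF1D and RBM28 in both knockdowns and for RCL1 and NMD3 in shMETTL3 held without each of the 6 libraries. UTP11 in shMETTL14 was lost without shMETTL14 replicate 1 (0.124) and replicate 2 (0.0865). RCL1 in shMETTL14 was lost with DESeq2 (adjusted p = 0.0615), and in edgeR with library size alone (0.0538) and without the filter (0.0669). It was also lost without shMETTL14 replicate 1 (log2 fold change -0.22), shMETTL14 replicate 2 (-0.28), shCTR replicate 1 (-0.22) and shMETTL3 replicate 1 (-0.25).

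Between the knockdowns, 5 of the 134 genes differed (3.73%, beside 12.1% of all genes tested), of which 2 were higher and 3 lower in shMETTL3. The exosome subunit EXOSC2 (0.25, adjusted p = 0.0185) and the polymerase subunit POLR1E (0.22, adjusted p = 0.0297) were higher. The nuclear exonuclease XRN2 (-0.29, adjusted p = 0.00960), the exosome subunit EXOSC6 (-0.28, adjusted p = 0.0289) and the large subunit ATPase MDN1 (-0.23, adjusted p = 0.0356) were lower. Without any 1 of the 4 knockdown libraries these calls were lost (adjusted p from 0.0714 to 0.352), except for XRN2 without shMETTL3 replicate 1 (0.0468).

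**Figure D4:**
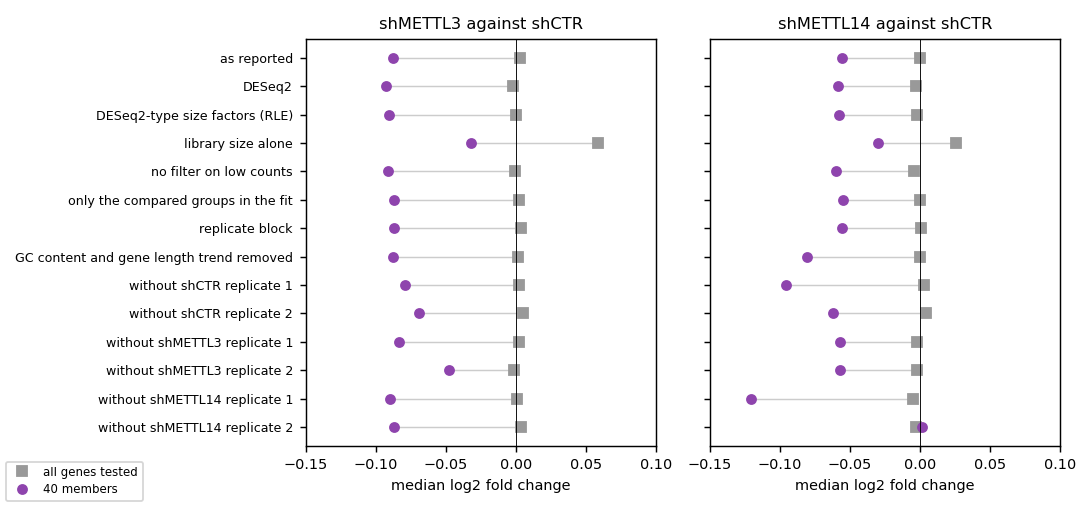
Median log2 fold change (horizontal axis) of the 40 genes (circles) and of all genes tested (squares) under the reported fit and each of the 13 alternatives (rows), for shMETTL3 (left) and shMETTL14 (right). The circles lie left of the squares in every row but 1, the shMETTL14 fit without shMETTL14 replicate 2, where the circle is at 0.00 and the square at -0.00.

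Features that the choice by name did not use were also described for the 40 genes. Small nucleolar RNA genes lie inside 8 of them on the same strand: NOP56, NOP58, DKC1, POLR1C, NCL, GNL3, WDR43 and TSR1. All 8 had log2 fold changes below 0 in both knockdowns, with medians of -0.13 in shMETTL3 and -0.10 in shMETTL14. Of the 32 genes without a snoRNA gene, 21 and 22 were below 0, with medians of -0.06 and -0.04. Across all tested coding genes, the 217 with a snoRNA gene inside had medians of -0.08 and -0.06, with 69.1% and 68.2% below 0, and the 12321 without had medians of 0.01 and -0.00, with 48.2% and 50.2% below 0. These are descriptions, and the 8 and the 217 share the same libraries and, for the 8, the same genes.

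The sequence GGACT, the commonest core of m6A sites, occurred at a median of 0.899 per kb in the longest coding transcripts of the 40 genes and 0.933 per kb over 12538 tested coding genes; 4 of the 40 had none. Across the 40 genes, which share the 6 libraries, the log2 fold change in shMETTL3 had a Pearson r of 0.39 and a Spearman rho of 0.39 with GGACT per kb, so genes with more of these letters tended to lie higher. With the logarithm of the shCTR level the values were -0.41 and -0.37, with GC content 0.21 and 0.20, and with transcript length -0.04 and 0.05. In shMETTL14 they were 0.23 and 0.27 for GGACT per kb, -0.39 and -0.38 for the level, and 0.28 and 0.33 for GC content. No m6A measurement was used here, and no p is given since genes are not independent replicates.

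Genes with an E-box in the promoter did not lie lower than the others. Their median log2 fold change was -0.07 in shMETTL3 (12 genes, 8 below 0), against -0.10 for the 22 with a promoter and no E-box (17 below 0). In shMETTL14 the medians were -0.03 (7 of 12 below 0) and -0.16 (18 of 22 below 0). MYC, whose product binds this motif, had a log2 fold change of -0.20 in shMETTL3 (adjusted p = 0.0270) and -0.04 in shMETTL14 (adjusted p = 0.732). MAX had -0.29 (adjusted p = 0.00509) and -0.20 (adjusted p = 0.0833). Their part in the results was not tested.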

How the data were processed

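RNA-seq of K562 cells was analysed in 6 libraries, 2 each of shCTR, shMETTL3 and shMETTL14; groups and replicate numbers came from the sample titles. Per the study, mRNA was enriched with oligo(dT) beads, primed at random and sequenced on HiSeq. The authors deposited 1 table of counts, whole reads per gene and not normalized. The submitters' processing notes list HTSeq 0.6.1 and hg38; the aligner, the annotation and the strand setting are not given in the sources used here. Of 61661 identifiers, 60675 were Ensembl genes and 986 lay outside the annotation, with 0.635% to 0.703% of a library's reads. Gene symbols were matched through a reference name table for 56558 identifiers and GENCODE release 29 for 497 more.

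Testing used edgeR 4.0.16 under R 4.3.3 (genes kept by filterByExpr at its minimum of 10 reads, TMM, quasi-likelihood fit over the 6 libraries, two-sided, Benjamini-Hochberg adjustment over all genes tested, threshold 0.05, intervals at 95%). The PCR reads carry no molecular identifiers, so counting error is a lower limit. Alternatives were DESeq2 1.42.0, other scalings, no filter, the compared groups alone, the replicate number as a block, removal of a GC and length trend (mgcv 1.9.3) and each library left out. Steps were tested on simulated data. The 40 genes, the 134 others and the motifs were chosen with earlier results of these data known. PES1, BOP1, WDR12 and each of the 40 genes past the threshold in a knockdown are given per library, the rest by role; of the 134, the 4 largest called rises and falls per comparison with at least 10 counts in every library are named. NIP7, NOP10, POLR1D, RRN3 and NOB1 were given per library after their values were seen. Promoters came from RefSeq and no protein sequences were used. Of the marker genes examined, 2 are not reported here.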

Additional observations from a re-analysis of the deposited data

Results flagged for a closer look

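Among the genes named, 9 differed between the 2 knockdowns by a test of the difference itself (edgeR's quasi-likelihood test of shMETTL3 against shMETTL14, adjusted p under 0.05), although each knockdown was meant to remove a part of the same enzyme. Of the 40 genes, DDX21 (log2 difference 0.23), NIP7 (0.28) and TSR1 (0.22) were higher in shMETTL3 in 2 of 2 libraries, and NOP2 (-0.26) was lower in 2 of 2. Of the other pathway genes, EXOSC2 (0.25) and POLR1E (0.22) were higher, and XRN2 (-0.29), EXOSC6 (-0.28) and MDN1 (-0.23) lower. The 4 of the 40 genes (10.0%) and the 5 of the 134 others (3.73%) stand beside 12.1% of all genes tested. No group has the 4 or more libraries that a check for a library standing apart within its group needs.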

How the results depend on the processing

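Over the 13 alternatives, 1729 pairs of a named gene and an alternative were compared; 1585 kept their side of the threshold, 112 lost the call, 32 gained it, none that was called changed sign, and 85 uncalled values did. Of the 40 genes, the 6 called in shMETTL3 became 2 (1 higher, 1 lower) with library size alone, 13 (1 higher, 12 lower) with the GC and length trend removed, and 1 to 7 with a library left out. The 5 called in shMETTL14 became 2 with library size alone, 2 without the filter, 1 with the compared groups alone, 10 with the GC and length trend removed, and 0 to 8 with a library left out. The 4 between the knockdowns became 2 with DESeq2 and 0 to 5 with a library left out. Of the other pathway genes, the 20 called in shMETTL3 became 6 to 32 with a library left out. The 8 in shMETTL14 became 5 with DESeq2, 3 with library size alone, 3 without the filter, 4 with the compared groups alone and 2 to 24 with a library left out. The 5 between the knockdowns became 2 with DESeq2, 2 without the filter, 8 with the compared groups alone, 11 with the GC and length trend removed, and 0 to 9 with a library left out. With the GC and length trend removed, 1 of the 10 genes called in shMETTL14 was higher (UTP3) and 9 were lower. Without shCTR replicate 2, some of the other pathway genes were called higher in each knockdown. The cause of these shifts in the counts was not tested. Over all genes, the 2912 called in shMETTL3 were 1752 with DESeq2 and 1102 to 3569 with a library left out; the 1184 in shMETTL14 were 713 with DESeq2, 766 without the filter and 341 to 1913; the 2148 between the knockdowns were 1243 with DESeq2 and 942 to 2953. Library size alone gave 2158 higher and 858 lower in shMETTL3 (1544 and 1368 as reported), 743 and 443 in shMETTL14 (607 and 577), and 1399 and 754 between the knockdowns (1177 and 971). Same-numbered libraries deviated together between shCTR and shMETTL3 (r = 0.19) but not between shCTR and shMETTL14 (-0.03) or the knockdowns (-0.03), over 12769 genes, and nothing in the labels ties them, so the block was kept out of the reported fit. A fit with the replicate block called 8, 7 and 4 of the 40 genes and 27, 10 and 6 of the others, adding NOP10 (adjusted p = 0.0366) and POLR1D (0.0418) in shMETTL3 and GAR1 (0.0416) and NOB1 (0.0283) in shMETTL14. With 2 libraries a group, leaving out 1 of a group leaves a lone library that is assumed to vary like the others. The 2 libraries of shCTR differed more than those of the knockdowns. The mean chi-square per gene between the libraries of a group was 5.30 in shCTR, 3.04 in shMETTL3 and 2.55 in shMETTL14. The reported fit shares the spread estimate over the groups, and both knockdown comparisons use the shCTR libraries. The median standard error of 0.0678 over the 40 genes in shMETTL3 limits what can be seen. Depth was not the only limit, since NPM1, with 27855 to 35292 reads a library, still had a standard error of 0.0502.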
